A study of Mus musculus with 48 samples.

Results

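Methylated DNA was compared between the amygdala of Tph2-/- mice and that of Tph2+/+ mice after both had gone through maternal separation (MS). The comparison held 16 of the 48 libraries of the series, 8 per genotype and 1 per mouse. Its members were taken by their labels, and the contrast was fitted at all 187695 loci of the count table. It was fitted a second time with 6 against 8 libraries, without Tph2-/- MS replicates 2 and 3.

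Both groups were male mice of 4 months on a C57BL/6 background (by the labels; C57BL/6N by the methods of the study), born to heterozygous parents, and both had been taken from the dam for 3 h per day between postnatal days 2 and 15. They differed in Tph2 alone by their labels. The heterozygous parents came from a line backcrossed on C57BL/6N, and DNA close to Tph2 on chromosome 10 is inherited together with it. A difference in such DNA and the loss of Tph2 therefore cannot be told apart in this design. Tph2-/- mice were null mutants with TPH2 inactivated throughout life, so the design does not part an effect of the adult brain from one of development. Further groups of 8 were Tph2+/- MS mice and undisturbed controls (C) of each genotype, of which Tph2-/- C and Tph2+/+ C served here as other libraries for the same genotype contrast. All mice went through behavioural tests before their tissue was taken, and DNA of both amygdalae of a mouse was pooled.

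Tph2 encodes tryptophan hydroxylase 2, which carries out the first and limiting step of serotonin synthesis in neurons. The neurons that use it lie in the raphe nuclei and send axons to the amygdala, which itself holds few or no cells that make serotonin. DNA methylation at CpG dinucleotides was read by capture, in which a protein domain that binds methylated CpGs (MBD) pulls such fragments down. A count at a locus rises with its methylated CpGs and also with the number of copies of its sequence in the genome, and these cannot be told apart in such counts. Methylation counts hold no transcripts, so the labelled tissue could not be checked against marker RNAs.

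Loci were called at a Benjamini-Hochberg adjusted p under 0.05 in edgeR's quasi-likelihood test. With 8 against 8 libraries 13 loci were called (0.00693% of those tested), and with 6 against 8 libraries 17 were called (0.00906%), among them the same 13. Between the groups 8 of the 13 did not overlap in the first fit and 11 in the second (0.0133 and 0.0298% of all loci were lower without overlap). All 17 were lower in Tph2-/- MS mice, and all 17 lay on chromosome 10, the chromosome of Tph2, within 3.28 Mb. No locus was higher at this limit in either fit. Of the 17 loci, 14 fell in a stretch with a family of pseudogenes in near-identical copies, and the sequences of these copies are shown first because the counts at one copy depend on them.

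The stretch lies between Il22, the gene of the cytokine interleukin 22, and Ifng, the gene of interferon gamma. It holds 10 copies of one pseudogene (RefSeq, GRCm38.p6). The copies Gm32717 and Gm9029 on the minus strand face Gm9030 and Gm32802 on the plus strand, and these form the arms of an inverted repeat between Il22 and its own copy Iltifb. The copies Gm9040, Gm9044, Gm9045, Gm9046, Gm9048 and Gm9049 follow in a row on the minus strand, beyond Iltifb. Below, the window of 100 bases with the most CpGs in the locus chr10:118240183-118241196 (Gm32717) and its best match at the start of each other copy are given along the strand of the copy, with CpGs in capitals. The 10 copies fall into 4 kinds.
Gm32717 and Gm32802: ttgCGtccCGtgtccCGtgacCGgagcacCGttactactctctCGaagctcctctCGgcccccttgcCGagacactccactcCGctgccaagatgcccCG
Gm9029 and Gm9030: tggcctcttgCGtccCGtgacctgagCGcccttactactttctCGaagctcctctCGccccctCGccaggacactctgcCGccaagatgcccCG
Gm9040 and Gm9049: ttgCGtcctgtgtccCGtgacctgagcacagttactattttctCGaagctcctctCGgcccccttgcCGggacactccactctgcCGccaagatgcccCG
Gm9044, Gm9045, Gm9046 and Gm9048: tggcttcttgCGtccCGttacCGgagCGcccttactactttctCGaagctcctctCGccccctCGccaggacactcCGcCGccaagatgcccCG

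The first window sits at chr10:118240773-118240872 (minus strand) and, letter for letter, at chr10:118258596-118258695 (plus strand). The windows of the other kinds differ from it by 19, 8 and 18 edits, and hold 8, 7 and 10 CpGs against its 10. The locus in the exon of Gm32802 matches that of Gm32717 at all of its 939 bases, and the second pair of exon loci, chr10:118238775-118239834 and chr10:118259603-118260692, differs by 1 edit over 1060 bases. Loci of the row of 6 copies are 95.6 to 99.8% identical to each other. A read pair from such sequence can be placed at more than 1 copy, and how the authors' mapping placed it is not given in the sources used here. Which copy a count came from is therefore uncertain, and the levels of the copies are also given as a sum.

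Of the 17 called loci, 2 have no near copy in the reference. A near copy is a stretch covering 50% or more of the locus with 95% or more of its bases equal. The search for near copies does not find shorter repeats within a locus. Both loci hold some repeat sequence, and whether single reads from them can be placed elsewhere was not tested. Their windows of 100 bases with the most CpGs are given on the plus strand, with CpGs in capitals. The first lies at chr10:115073358-115073457 and the second at chr10:117555659-117555758.
Locus past the end of Tph2: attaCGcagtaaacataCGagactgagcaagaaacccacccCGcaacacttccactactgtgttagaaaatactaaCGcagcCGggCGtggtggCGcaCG
Locus upstream of Gm32235: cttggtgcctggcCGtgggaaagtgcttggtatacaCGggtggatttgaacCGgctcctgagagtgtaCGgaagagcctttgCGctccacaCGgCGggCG

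Depth was similar in the groups. The total per library was 10.5 ± 1.90 megacounts in Tph2-/- MS and 10.2 ± 0.888 megacounts in Tph2+/+ MS (SD, n = 8 each; exact permutation p = 0.637, 2-sided). Tph2-/- MS replicates 2 and 3 stood apart. Replicate 3 held no count at 6027 loci and replicate 2 at 712, against 9 to 413 in the other 14 libraries. Their TMM factors were 0.571 and 0.800, where the others ran from 0.825 to 1.07. Slopes on CpG density were taken from log2 counts less the mean of all 48 libraries at each locus. Relative to that mean their counts rose most steeply with CpG density, by 0.33 and 0.24 per SD of density, against -0.09 to 0.13 in the others. A slope below 0 thus stands for a rise less steep than the mean, not for a fall with density. The labels do not say how these libraries came to differ, and the main comparisons are given with and without them. Levels are given as CPM, the counts scaled to a common effective library size by the TMM factors, and 1 CPM stood for 4.62 to 14.7 counts in these 16 libraries.

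The targeted gene was examined first. Tph2 spans chr10:115078641-115185022 on the minus strand and holds 15 loci, 5 over coding exons and 10 in introns. Their summed level ran from 28.8 to 45.04 CPM in the Tph2-/- MS libraries (median 36.7) and from 36.6 to 45.7 CPM in the Tph2+/+ MS libraries (median 40.2), so the groups overlapped. The means were 36.2 ± 5.23 and 40.3 ± 3.13 CPM (SD, n = 8 each; exact permutation p = 0.0789, 2-sided), and 38.5 ± 3.65 CPM for the 6 libraries left without replicates 2 and 3 (exact permutation p = 0.326). None of the 15 loci was called, with log2 fold changes from -0.51 to 0.15 in the 8 against 8 fit (-0.48 to 0.26 in the 6 against 8 fit) and, in the first, a smallest adjusted p of 0.576, at an intron locus starting at position 115126449 (log2 fold change -0.44). An unadjusted p under 0.05 was reached by 1 of the 15 with 8 against 8 libraries (8.37% of all loci) and by 0 with 6 against 8 (4.2%). These counts neither check nor contradict the genotype labels.

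The called locus nearest to Tph2 lies 5002 bp past the end of the gene, at chr10:115072171-115073639, between genes, and holds 28 CpGs in 1469 bp. The Tph2-/- MS libraries ran from 0.452 to 2.42 CPM (median 1.39) and the Tph2+/+ MS libraries from 2.79 to 4.85 CPM (median 3.99). Every Tph2-/- library was below every Tph2+/+ library. The log2 fold change was -1.51 (SE 0.22, adjusted p = 1.92e-05), and -1.37 (SE 0.22, adjusted p = 0.000239) without replicates 2 and 3. In mice that had not been separated the groups were closer and overlapped, with 1.69 to 2.85 CPM (median 2.27) in Tph2-/- C and 2.77 to 4.87 CPM (median 3.27) in Tph2+/+ C, and the contrast was -0.58 on the log2 scale (SE 0.19, adjusted p = 1.0).

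The genotype step at this locus was thus -0.93 (SE 0.29) wider on the log2 scale after separation than without it. That difference had an unadjusted p of 0.00197 in edgeR and an adjusted p of 0.998 over all loci, so it did not pass, and it was -0.79 (SE 0.29, unadjusted p = 0.00816 in edgeR) without replicates 2 and 3. The locus was called on its step after separation, which is part of this difference, so the unadjusted p-values describe it and test nothing. Tph2+/- MS mice held 1.80 to 4.36 CPM (median 2.98), which overlapped the ranges of both homozygous groups.

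The other called locus without a near copy lies at chr10:117554938-117555914, 3219 bp before the predicted gene Gm32235. Tph2-/- MS libraries ran from 0.411 to 2.25 CPM (median 1.49) and Tph2+/+ MS libraries from 2.03 to 3.85 CPM (median 3.43). A single Tph2-/- library, replicate 5, reached into the wildtype range. The log2 fold change was -1.19 (SE 0.22, adjusted p = 0.00869) with 8 against 8 libraries and -1.14 (SE 0.24, adjusted p = 0.0432) with 6 against 8. It was -1.51 (SE 0.22, adjusted p = 1.46e-05) in C, where the groups did not overlap.

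**Figure D1:**
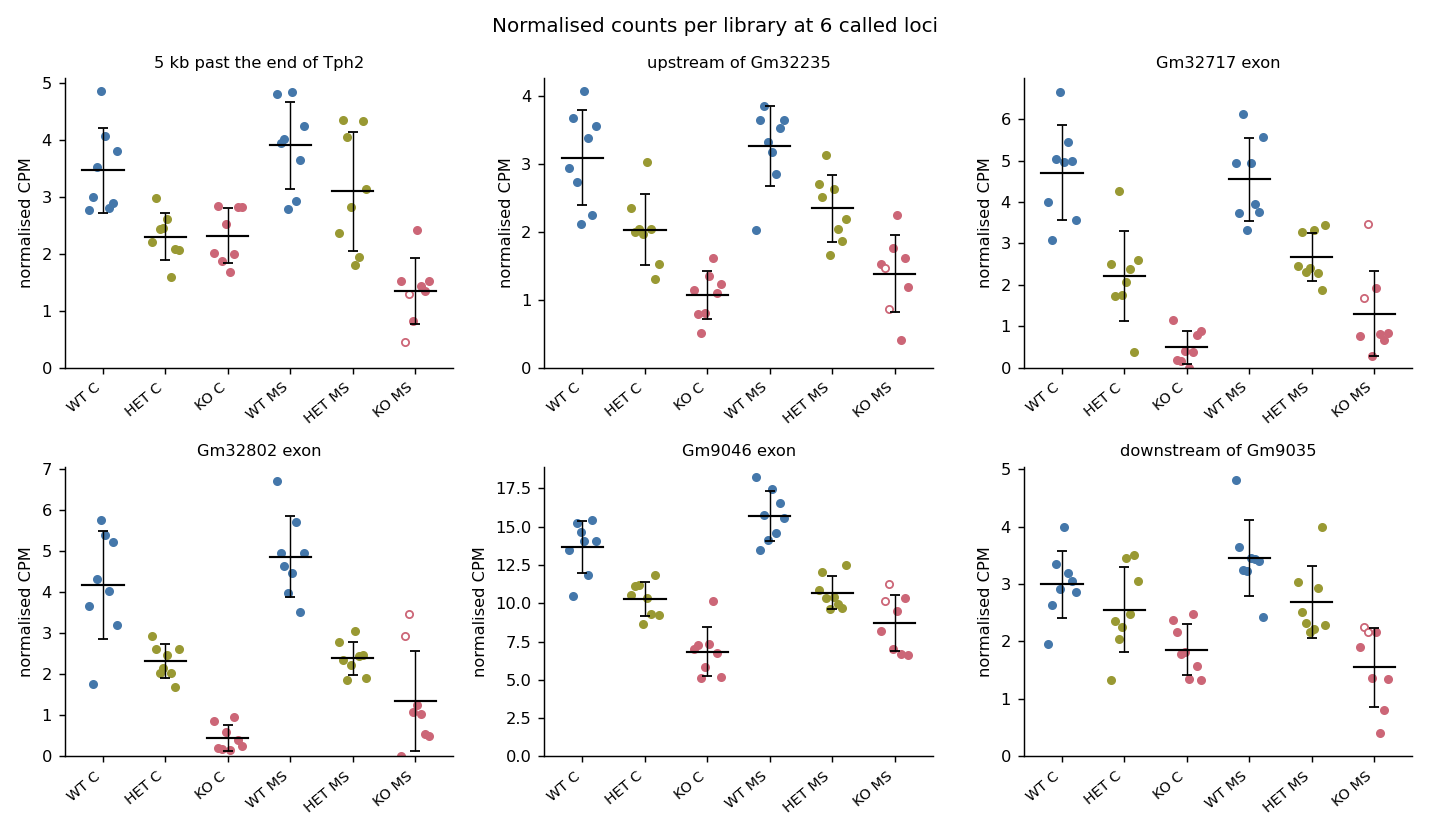
Normalised CPM per library (points) at 6 called loci in the 6 groups of 8 mice, with the group mean (long bar) and SD (error bar). WT, HET and KO stand for Tph2+/+, Tph2+/- and Tph2-/-, and open points are KO MS replicates 2 and 3, which held 2.94 and 3.46 CPM at the Gm32802 exon, where the other 6 KO MS libraries held 0 to 1.25 CPM.

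The largest steps were in the arms of the inverted repeat. At the Gm32802 exon locus chr10:118258290-118259228 the Tph2+/+ MS libraries held 3.53 to 6.71 CPM (median 4.80). Tph2-/- MS replicates 2 and 3 held 2.94 and 3.46 CPM, and the other 6 Tph2-/- MS libraries held 0 to 1.25 CPM. The 2 libraries that stood apart were thus the highest of their group here, though still under the wildtype range. The log2 fold change was -1.99 (SE 0.29, adjusted p = 0.000184) with 8 against 8 libraries and -2.66 (SE 0.27, adjusted p = 7.71e-12) with 6 against 8. In C it was -3.16 (SE 0.33, adjusted p = 5.35e-09).

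Its mirror image in Gm32717, chr10:118240183-118241196, behaved alike in its values. Tph2+/+ MS libraries held 3.33 to 6.13 CPM (median 4.44), and Tph2-/- MS libraries 0.272 to 3.46 CPM (median 0.834), with replicate 3 highest and alone within the wildtype range. The log2 fold change was -1.96 (SE 0.31, adjusted p = 0.00243), or -2.36 (SE 0.31, adjusted p = 1.18e-05) without replicates 2 and 3, and -3.16 in C (SE 0.34, adjusted p = 5.05e-08). Since the arms are identical here, these are not independent measurements of a pair of places.

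The second pair of exon loci was lower as well. The Gm32717 locus starting at 118238775 held 0.846 to 3.90 CPM in Tph2-/- MS and 4.19 to 6.33 CPM in Tph2+/+ MS, with no overlap (log2 fold change -1.55, SE 0.20, adjusted p = 6.40e-07, and -1.70, SE 0.21, without replicates 2 and 3). Its mirror in Gm32802, starting at 118259603, held 0.815 to 2.69 CPM against 2.13 to 7.85 CPM, where 1 Tph2+/+ library, replicate 2, lay among the knockouts (-1.57, SE 0.22, adjusted p = 9.15e-06, and -1.68, SE 0.23). A locus just before Gm32802, starting at 118257496, was called with 6 against 8 libraries alone. Its fitted log2 fold change of -2.20 (SE 0.45, adjusted p = 0.0402) rests on few counts, since 2 of the 6 Tph2-/- MS libraries, replicates 1 and 7, had none, which allows a level of up to 0.285 and 0.403 CPM in them (3 counts each), against 0.859 to 2.79 CPM in Tph2+/+ MS.

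Gm9029 and Gm9030, the inner copies of the arms, had smaller steps. Their called loci, starting at 118244249 and 118252150, had log2 fold changes of -1.05 (SE 0.19) and -0.83 (SE 0.17) with 8 against 8 libraries, and -1.21 and -1.04 with 6 against 8. Means were 2.71 ± 1.21 against 5.43 ± 0.620 CPM at Gm9029 and 3.50 ± 1.28 against 6.01 ± 0.892 CPM at Gm9030 (SD, n = 8 each). Replicate 3 was alone of the Tph2-/- libraries to reach the wildtype range at Gm9029, as were replicates 2 and 3 at Gm9030.

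In the row of 6 copies the CPM were higher, but its called loci were also wider. They span 2392 to 3457 bp, against 985 and 1624 bp at the called loci of the inner copies, and CPM are not divided by width. With 6 against 8 libraries the step was smaller than at the called loci of the inner copies. The inner copies also hold exon loci that were not called, starting at 118245326 and 118254258, with -0.73 and -0.79 in that fit. At Gm9046, chr10:118340784-118344240, Tph2-/- MS libraries held 6.60 to 11.3 CPM (median 8.84) and Tph2+/+ MS libraries 13.5 to 18.2 CPM (median 15.7). The groups did not overlap, and the log2 fold change was -0.87 (SE 0.13, adjusted p = 0.000184), or -0.97 (SE 0.13, adjusted p = 1.98e-06) without replicates 2 and 3. The loci of Gm9044, Gm9045 and Gm9048 were called in both fits, with log2 fold changes of -0.78, -0.84 and -0.72 in the first. Those of Gm9040 and Gm9049 had -0.68 and -0.61 and were called without replicates 2 and 3 alone, at -0.84 and -0.74. In the second fit the 6 copies of the row thus had log2 fold changes between -0.97 and -0.74, while the called exon loci of Gm32717 and Gm32802 had -2.66 to -1.68.

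The remaining called loci are a locus 4051 bp past Gm9035 and a locus in an intron of the predicted gene Gm32663. The first starts at 118271688, has 1 identical copy in the opposite arm (chr10:118226920-118227782), and had -1.16 (SE 0.22, adjusted p = 0.0102) and -1.32 (SE 0.23, adjusted p = 0.00156) on the log2 scale in the fits, with no overlap between the groups. In C it had -0.68 (SE 0.21, adjusted p = 1.0), and the difference between MS and C had an unadjusted p of 0.117 and 0.0431 in the fits of edgeR. The first was called on its step after separation, which is part of that difference, so these unadjusted p-values describe it and test nothing. The locus that holds its identical copy, starting at 118226899, had -1.06 and -1.17 in the fits (adjusted p = 0.149 and 0.0657 in edgeR). In C that locus had -1.11 (SE 0.22, adjusted p = 0.0292), and its difference between MS and C was 0.05 (SE 0.33) with 8 against 8 libraries. The second called locus, in Gm32663, starts at 118030298, is 97.4% repeat sequence, and was called with 6 against 8 libraries alone (-0.74, SE 0.13, adjusted p = 0.00156). With all libraries it had -0.33 (SE 0.16, adjusted p = 0.583), as replicates 2 and 3 held 18.1 and 31.6 CPM and the other 6 held 8.12 to 12.4 CPM, against 12.7 to 23.7 CPM in Tph2+/+ MS.

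All loci of the stretch from Il22 past the last copy were then listed by their sequence, whether called or not. Of 38 loci, 18 had 5 to 9 near copies within the stretch, 10 had 1 and 10 had none. The limits of the stretch were set with the calls in view, so the counts below describe it and test nothing. All 18 loci of the 10-copy family were lower in Tph2-/- MS mice in both fits, where 48.6 and 50.5% of all loci were lower. Their median log2 fold change was -0.96 and -1.01, against 0.01 and 0.00 over all loci, and 13 of them were called in at least 1 fit.

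Beside the family the arms hold a pair of further pseudogenes, Gm9585 and Gm9035. The 4 loci at or near them had log2 fold changes from -1.32 to -0.67 with 6 against 8 libraries, 1 of them called. At the ends of the arms the values returned to about 0. The 3 loci at Il22 had 0.01, -0.12 and 0.19, and the 3 at Iltifb had 0.19, 0.18 and -0.05. The 10 loci without a near copy, between Iltifb and the row of copies and beyond it, ran from -0.50 to 0.33, and none was called.

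**Figure D2:**
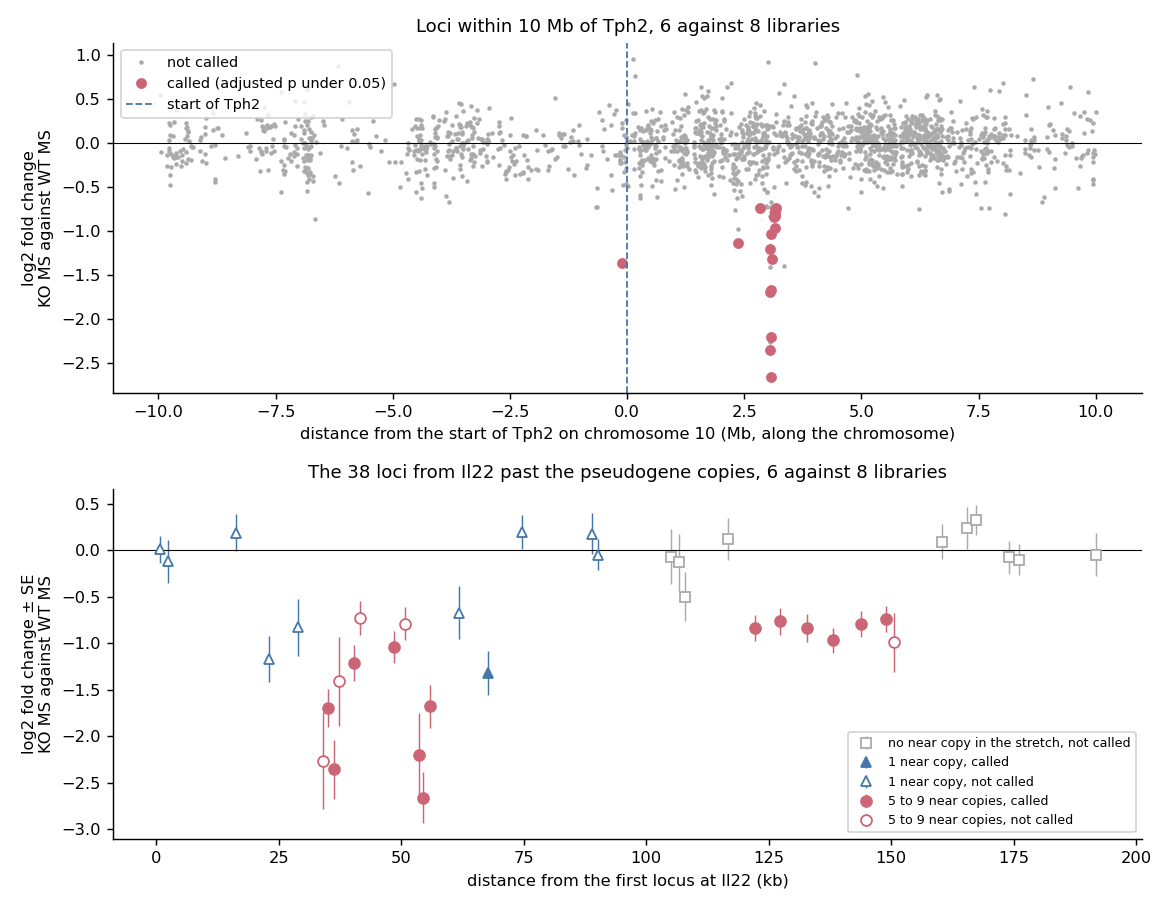
Log2 fold change of Tph2-/- MS (KO MS) against Tph2+/+ MS (WT MS) with 6 against 8 libraries, for loci within 10 Mb of the start of Tph2 (top, 17 called loci in red) and for 38 loci around the pseudogene copies with SE bars (bottom, filled where called). The called loci sit at the gene's end and between about 2 and 4 Mb from its start, and in the lower panel loci at Il22, at Iltifb and beyond the row of copies lie near 0.

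Summed over the 18 loci, the Tph2-/- MS libraries held 50.8 to 90.7 CPM (median 62.0), the Tph2+/- MS libraries 77.5 to 102 CPM (median 83.5) and the Tph2+/+ MS libraries 108 to 136 CPM (median 123). The Tph2-/- MS mean was 54.0% of the Tph2+/+ MS mean, or 49.1% without replicates 2 and 3, and the Tph2+/- MS mean was 71.0% of it. In C the Tph2-/- mean was 46.95% and the Tph2+/- mean 76.8% of the Tph2+/+ mean. In both rearing conditions the sum was lowest in Tph2-/- mice, between in Tph2+/- mice and highest in Tph2+/+ mice, and homozygous groups did not overlap. The Tph2+/- and Tph2-/- values share the Tph2+/+ libraries they are set against.

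**Figure D3:**
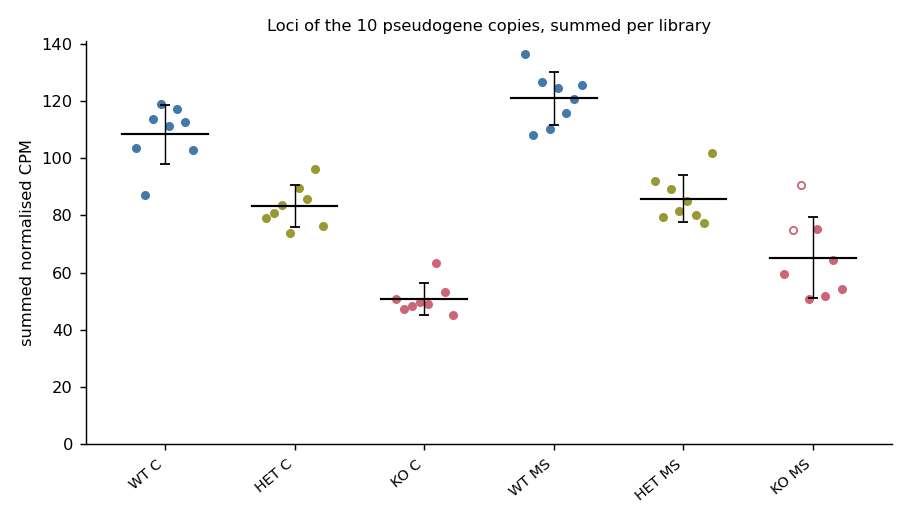
Summed normalised CPM of the 18 loci of the 10-copy pseudogene family per library (points) in the 6 groups of 8 mice, with mean (long bar) and SD (error bar). WT, HET and KO stand for Tph2+/+, Tph2+/- and Tph2-/-, open points are KO MS replicates 2 and 3, and the KO MS mean is 54.0% and the HET MS mean 71.0% of the WT MS mean.

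Whether the same loci differ without separation was asked in the 16 libraries of Tph2-/- C and Tph2+/+ C, whose values do not enter the MS contrast, though the fit of all libraries takes its spread from them too. All 13 loci called in both fits were lower in Tph2-/- C, where 49.2% of all loci had a log2 fold change below 0. All 13 had an unadjusted p under 0.05 in edgeR (2.59% of all loci), 10 had an adjusted p under 0.05 (0.0101% of all loci) and 10 did not overlap between the groups (0.0133% of all loci were lower without overlap). Of the 17, all 17 were lower and 12 were called. The C contrast called 19 loci in all, each lower in Tph2-/- mice and within 10 Mb of Tph2, and 12 of these 19 were among the 17.

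The step did not pass a test for a difference between MS and C at any locus of the genome. The difference of the genotype contrasts gave 0 calls in edgeR with 8 against 8 and with 6 against 8 libraries (7112 and 6841 loci, 3.79 and 3.64%, at an unadjusted p under 0.05), 0 in DESeq2 and 0 in limma. The 13 loci were called on their step after separation, so the counts that follow describe them and test nothing. Among the 13 loci the step was wider after separation at 4 and narrower at 9, with 4 at an unadjusted p under 0.05 in the first fit and 3 in the second. At the exon loci of Gm32717 and Gm32802 it was narrower after separation with 8 against 8 libraries, by 1.17 (SE 0.46) at the locus starting at 118258290 and by 1.21 (SE 0.48) at its mirror on the log2 scale, and by 0.51 (SE 0.40) and 0.81 (SE 0.46) without replicates 2 and 3.

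**Figure D4:**
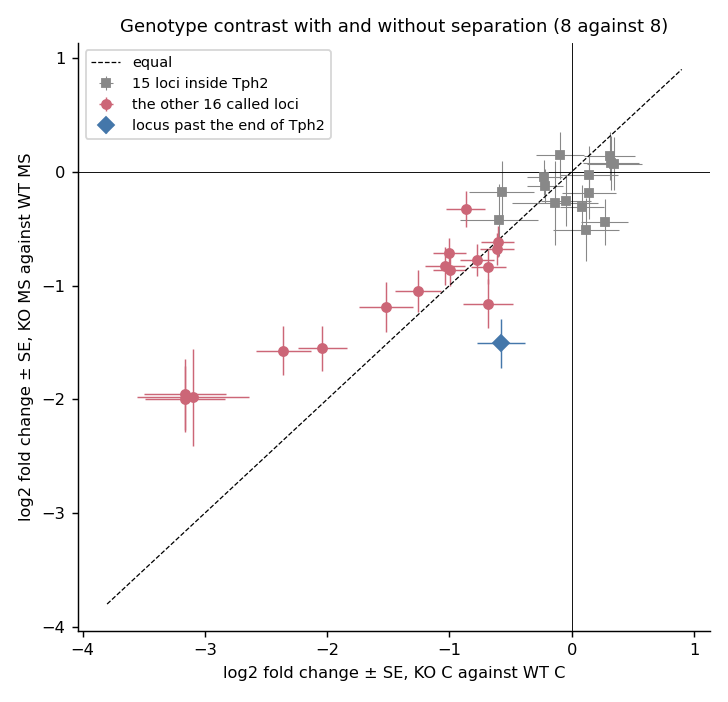
Log2 fold change with SE of Tph2-/- (KO) against Tph2+/+ (WT) mice without separation (x axis) and after it (y axis) in the fit of all 48 libraries, for the 17 called loci and the 15 loci inside Tph2, with a dashed line of equal values. The locus past the end of Tph2 lies below the line (-0.58 and -1.51), and the exon loci of Gm32717 and Gm32802 lie above it. Of the 15 loci inside Tph2, 11 were below 0 after separation (median -0.18) and 7 without it.

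In Tph2+/- MS mice, set beside these values, all 13 loci were lower than in Tph2+/+ MS and their mean lay between those of the homozygous groups. This contrast shares the Tph2+/+ MS libraries by which the 13 loci were called, so its values at these loci describe them and test nothing. No locus of the genome was called in Tph2+/- MS against Tph2+/+ MS by edgeR, beside 6853 loci at an unadjusted p under 0.05 (3.65%). The same fit without the 2 knockout libraries gave 0 calls in edgeR and 2 in DESeq2, both among the 17 loci. Of the 13 loci, 11 had an unadjusted p under 0.05 in Tph2+/- mice.

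The MS libraries were also split by sample number, at a cut after S26 that was set for this comparison. The numbers S18 to S26 hold Tph2-/- replicates 1 to 4 and Tph2+/+ replicates 1 to 3, and S28 to S41 hold the others. All 13 loci were lower within the early and within the late numbers. The median log2 fold change was -1.10 within the early and also within the late numbers, and 12 and 13 of the 13 had an unadjusted p under 0.05 in edgeR. The 13 loci were called from these same libraries, so these values describe them and test nothing. At the adjusted limit 0 were called within the early numbers (7753 loci of the genome at an unadjusted p under 0.05) and 5 within the late numbers, with 4 against 3 and 4 against 5 libraries. Without replicates 2 and 3 the early numbers left 2 against 3 libraries, of which 2 of the 13 were called.

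The span from the first called locus to the last also holds 515 loci that were called in neither fit. Their median log2 fold change was -0.04 in both fits, and 56.9 and 55.3% were lower. Genes of the stretch were represented by 29 of 32 listed genes from Trhde past Tph2 to Ifng with 257 loci, of which 0 were called. Over all loci 0.00693 and 0.00906% were called in the fits. The list leaves out the predicted genes and pseudogenes at the called loci, and a locus past a gene's end is not counted to it. The 0 thus does not describe the whole stretch. At the limits of the study described further on, 3 of the 257 were higher and 5 lower with 8 against 8 libraries (3.11%, against 1.69% of all loci) and 1 was higher and 3 were lower with 6 against 8 (1.56%, against 0.77%). The nearest to a call was a coding exon of Mdm1, whose protein binds the centriole, starting at 118163161 (log2 fold change -0.67 and -0.73, adjusted p = 0.149 and 0.0657). It was lower in C as well (-0.61).

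Outside the 10 Mb on each side of Tph2 no locus was called by edgeR in either fit, and DESeq2 called 1 in each. On leaving out 1 library edgeR called 1 or 2 there in 5 cases, without Tph2-/- replicate 5 or 8 or Tph2+/+ replicate 1 in the first fit and without Tph2-/- replicate 4 or Tph2+/+ replicate 5 in the second. With 6 against 8 libraries the smallest p among higher loci was in an intron of Rab31, which encodes a GTPase of vesicle transport. It held 0.866 to 3.42 CPM in Tph2-/- MS and 0.429 to 1.96 CPM in Tph2+/+ MS, overlapping (log2 fold change 1.18, SE 0.26, adjusted p = 0.105, and 0.98, adjusted p = 0.565, with 8 against 8 libraries). A coding exon of Clspn, which encodes a protein of the DNA replication checkpoint, had 0.59 (adjusted p = 0.946), and a locus 13740 bp past Tuba3b, an alpha-tubulin gene, had 0.74 (adjusted p = 0.604). An intron of Malt1, a gene of immune signalling, had 1.25 (adjusted p = 0.855), and a locus 182632 bp past Gm32243 had 1.18 (adjusted p = 0.897).

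Among lower loci the smallest p was at a locus 4720 bp past the small RNA gene Gm22779 on chromosome 5 (-1.37, SE 0.31, adjusted p = 0.169). An exon of Gm41508 had -0.88 (adjusted p = 0.405), with 1.52 to 2.37 CPM in Tph2-/- MS and 1.77 to 4.98 CPM in Tph2+/+ MS, and an intron of Stpg2 had -0.82 (adjusted p = 0.575). A locus 56770 bp before Gm46835 had -0.89 (adjusted p = 0.575) and an intron of Wdr25 had -0.83 (adjusted p = 0.618). None of these differences passed the adjusted limit.

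The study itself asked for p under 0.01 without adjustment and for a size over 0.2 on the log2 scale. At these limits 3168 loci passed with 8 against 8 libraries (1.69%), 1865 higher (0.994%) and 1303 lower (0.694%). With 6 against 8 libraries 1446 passed (0.77%), 621 higher (0.331%) and 825 lower (0.44%). The majority was thus higher in the first fit and lower in the second. With all 8 Tph2-/- MS libraries kept, it was also lower when the libraries of the contrast alone were fitted (449 higher and 653 lower) and in limma voom (552 and 715). Some 1877 of 187695 loci have a p under 0.01 where nothing differs. The lists shared 815 loci in the same direction, which is 25.7% of the first and 56.4% of the second.

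The share of higher loci fell most among CpG-rich loci. Loci were put in 5 equal groups by CpG density. In the densest group (over 23.6 CpGs per kb) 3.26% were higher at these limits with 8 against 8 libraries and 0.330% with 6 against 8. In the sparsest group 1.35% were lower with 8 against 8 and 0.940% with 6 against 8. The median log2 fold change of the densest group was 0.17 and 0.01 in the fits. Of loci on chromosome X, 3.25% were higher in the first fit and 0.130% in the second, with a median of 0.22 and -0.01. Coding exons had 1.35 and 0.534% higher. The CpG slopes of replicates 2 and 3 were the steepest, and their part in these counts was not tested apart from the rest of what set these libraries off. With an offset for CpG density in each library and all libraries kept, 1350 loci were higher and 974 lower.

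**Figure D5:**
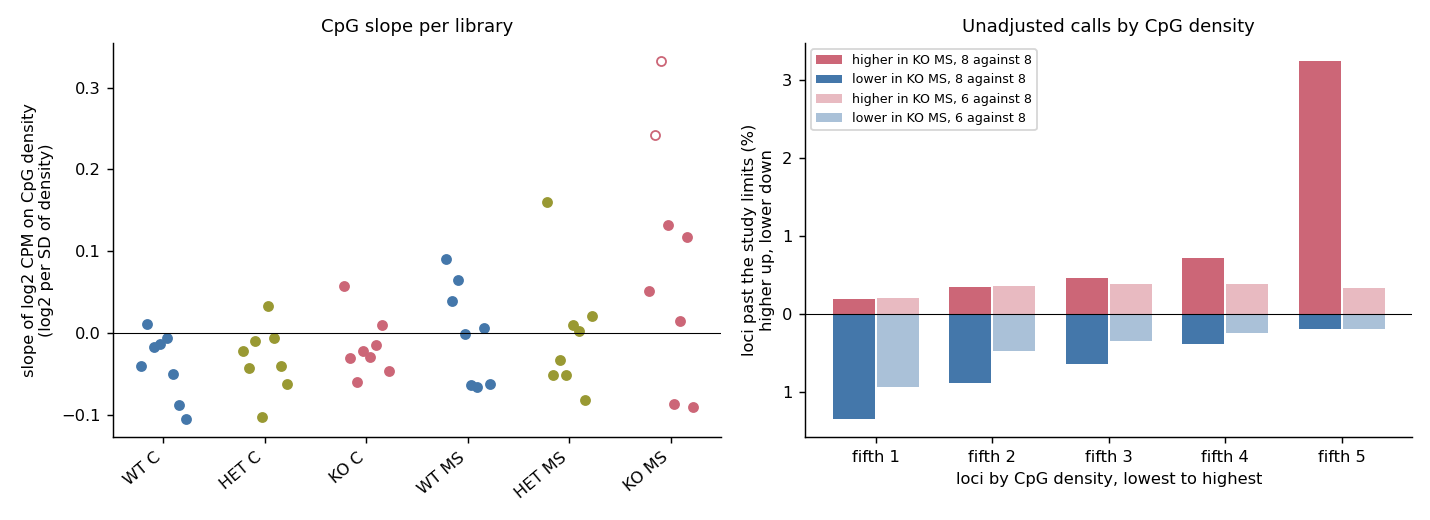
Left, the slope on CpG density of log2 counts, less the mean of all 48 libraries at each locus, for each library in the 6 groups of 8 mice. Open points are KO MS replicates 2 and 3, at 0.24 and 0.33. Right, the percentage of loci past the limits of the study, higher (upward bars) or lower (downward bars) in KO MS, in 5 equal groups by CpG density, for 8 against 8 (dark) and 6 against 8 libraries (light); the densest group goes from 3.26 to 0.330% higher.

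Genes of the serotonin system and of the circuits it acts on were looked up by list. No locus of any of the 17 lists was called in either fit (0 of 1498 loci), and the counts at the study's limits are set against 1.69% of all loci with 8 against 8 and 0.77% with 6 against 8 libraries. Serotonin synthesis, transport and breakdown had 100 loci at 13 of 15 genes, with 1 higher and 0 lower in the first fit and 0 of either in the second. An intron of Tph1, the tryptophan hydroxylase of tissues outside the brain, had a log2 fold change of 0.47 and 0.35. An intron of Lmx1b, a transcription factor of serotonin neurons, had the smallest p of the list with 6 against 8 libraries (0.56 and 0.60, adjusted p = 0.574 and 1.0). Serotonin receptors had 53 loci at 12 of 14 genes with 0 at these limits in both fits. A locus just before Htr6, a receptor coupled to cyclic AMP, had -0.10 and -0.53.

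The stress hormone axis had 77 loci at 11 of 13 genes. At the study's limits 1 was higher and 2 were lower with 8 against 8 libraries, and 1 was higher with 6 against 8. That locus lies in an intron of Sgk1, a kinase induced by glucocorticoids (0.70 and 0.84, SE 0.26 in the second fit, adjusted p = 0.574 and 1.0). An intron of Fkbp5, a co-chaperone of the glucocorticoid receptor, had -0.54 and -0.45. Oxytocin and vasopressin genes had 14 loci and none at these limits, with -0.38 and -0.37 before Avpr1a, a vasopressin receptor gene. Amygdala peptides and interneuron genes had 49 loci and none, with -0.46 and -0.63 before Npy2r, a receptor of neuropeptide Y.

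Transmitter genes gave as few. Glutamate receptors and transporters had 355 loci, 2 higher and 1 lower in the first fit and 1 higher in the second, at a coding exon of Grin1, the shared subunit of NMDA receptors (0.84 and 0.66). GABA genes had 111 loci, 2 higher in the first fit and 1 lower in the second, in an intron of Gabrg3, a GABA-A receptor subunit (-0.77 and -1.0). Dopamine and noradrenaline genes had 77 loci and 1 lower in the first fit alone, and an intron of Adra1b, an adrenergic receptor, had -0.67 and -0.54. Neurotrophins and their receptors had 49 loci and none at these limits. Activity-induced genes had 25 loci and 1 higher in the first fit alone, and a coding exon of Nr4a1 had 0.41 and 0.38.

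Writers, erasers and readers of DNA methylation had 89 loci, 1 higher and 1 lower in the first fit and 1 lower in the second. The lower locus was in a coding exon of Dnmt3b, a de novo methyltransferase (-0.79 and -0.84, SE 0.25 in the second fit, adjusted p = 0.574 and 1.0).

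Loci at markers of brain cell types were counted in the same way. Neuron markers had 60 loci with 1 higher and 1 lower in both fits, in an untranslated exon of Rbfox3 (0.83 and 0.75) and an intron of Syt1 (-0.80 and -0.87). Astrocyte markers had 21 loci with 1 lower in both, in Aldh1l1 (-0.49 and -0.54). Oligodendrocyte and myelin genes had 60 loci and microglia markers 32, with none in either fit. Endothelial markers had 84 loci with 1 lower in the first fit alone, in an intron of Flt1 (-0.61 and -0.57), and other introns of Flt1 had -0.42 and -0.58 at one locus and 0.52 and 0.60 at another. The medians of these 5 lists lay between -0.01 and 0.15 in the first fit and between -0.08 and 0.13 in the second.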

How the data were processed

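Amygdala DNA of 48 mice was captured with an MBD protein and read as 50 bp pairs, with 20 megareads planned per library. The authors mapped with Bowtie2 2.1.0 to GRCm38, called and merged peaks and counted reads in them with DiffBind 2.0.9, and the deposited values are raw counts per peak (locus). Handling of duplicate and repeated reads is not given in the sources used here. The study left out 2 Tph2-/- MS libraries that it does not name, so the contrast was fitted with all 48 libraries and again without replicates 2 and 3.

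Counts were tested with edgeR 4.0.16 in R 4.3.3 (TMM, trended dispersion, robust quasi-likelihood F-test, 1 term per group, Benjamini-Hochberg over 187695 loci; SE from the fold change and F). CPM use the TMM factors. Single values were compared by 2-sided exact permutation over 12870 (8 against 8) or 3003 (6 against 8) regroupings. Whether mice came from separate litters is not labelled, so p-values measure the spread between mice. Even values made up 56.4 to 76.0% of nonzero counts per library, and whether both mates of a pair were counted is not given in the sources used here; floors cover counting error only.

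Genes and sequence came from RefSeq on GRCm38.p6; a locus counted as in a gene when it overlapped it or the 5 kb before its start. Copies were sought with minimap2 2.31. Named were the loci inside Tph2, the loci called in both fits, outside 10 Mb of Tph2 the 5 higher and 5 lower with the smallest p and loci among the 3 with the smallest p of each gene list, of which 1 is not reported here. The 4 loci called in the second fit alone and the other loci of the pseudogene stretch were named after their values were seen. The members and lists were chosen with earlier results of these data known. On simulated data (187695 loci) 60 of 100 log2 changes of size 1 and 3 of 100 of size 0.5 were recovered with 8 against 8 libraries, and 50 and 5 with 6 against 8. Alternatives were DESeq2 1.42.0, limma 3.58.1 voom, other library sizes, filters, a CpG offset, subsets of libraries and sample-number terms.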

Additional observations from a re-analysis of the deposited data

Results flagged for a closer look

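In 48 sets of 8 libraries (library measures and levels at the called loci in each MS group) 4 held a library far from the others, where chance gives about 1 in 20. Tph2-/- MS replicate 3 held no count at 6027 loci, against a group median of 54.5. Tph2+/+ MS replicate 1 held none at 413 loci, against a median of 54.0. At the Gm32663 intron locus Tph2-/- MS replicate 3 held 31.6 CPM against a median of 10.7 CPM, and at the Gm9049 exon locus it held 10.8 CPM against a median of 6.19 CPM. These last loci are 2 of the 4 that were called without replicates 2 and 3 alone.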

How the results depend on the processing

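Direction held at all 17 called loci under every alternative run. The 13 calls of the 8 against 8 fit moved to 4 with the 16 libraries of the contrast alone, to 0 with early sample numbers and to 5 with late ones, and ran from 9 to 17 on leaving out 1 library. The 17 calls of the 6 against 8 fit moved to 8, 2 and 5 under the same subsets and ran from 14 to 19. Fewer libraries entered each of these fits. DESeq2 called 19 and 22, of which 1 higher in each, and leaving out 1 library gave 1 or 2 higher calls in 4 edgeR fits.

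At the study's limits the 3168 loci of the 8 against 8 fit became 1446 without Tph2-/- MS replicates 2 and 3, 1569 without replicates 3 and 7, 1102 with the contrast's libraries alone, 1623 with MS libraries alone, 1267 in limma voom, 1122 with early and 1297 with late sample numbers. On leaving out 1 library they ran from 1792 (without replicate 3) to 7466 (without Tph2-/- replicate 5). Those without Tph2-/- replicate 2 (1840) or 8 (7019) or Tph2+/+ replicate 1 (6345) moved by over 1.5 times too, and the cause was not tested. The 1446 of the 6 against 8 fit became 931 and 950 with the contrast's libraries and early numbers and ran from 1244 to 2012. Library sizes without TMM turned both majorities, with 718 higher and 1521 lower in the first fit and 1123 higher and 359 lower in the second, and moved the difference of MS and C from 1184 to 775 loci. For Tph2-/- C against Tph2+/+ C limma voom gave 1385 loci against 687.

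Signs turned at loci that were never called. With early sample numbers the locus past Gm32243 had -0.12 and that in Gabrg3 0.10, and before Htr6 it was 0.014, 0.0059, 0.0003 and 0.027 without Tph2-/- replicate 1, Tph2+/+ replicates 1 or 3, or Tph2-/- replicate 5, and ran down to -0.30 without Tph2-/- replicate 2.

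Replicate numbers do not pair mice (correlations of same-numbered deviations from -0.14 to 0.24), and the replicate block gave 13 and 16 calls. At this depth and number of mice, changes of 0.5 on the log2 scale were mostly missed in simulation, and the part of depth in that was not tested.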

Other observations

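At an intron locus of Rab21, a gene near Tph2 that encodes a GTPase of endosomes, the genotype step had opposite signs in the rearing conditions. The log2 fold change of Tph2-/- against Tph2+/+ was 0.85 with 8 against 8 libraries and 0.96 with 6 against 8 after separation, and -0.72 without it. The difference was 1.68 with 6 against 8 libraries, with an unadjusted p of 0.000157 in edgeR and an adjusted p of 1.0.

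Among the loci far from Tph2 the introns of Stpg2 and Rab31 and the exon of Gm41508 had log2 fold changes of 0.22, 0.10 and 0.14 in mice without separation. Their differences between MS and C with 6 against 8 libraries were -1.04, 1.09 and -1.02, and none passed the adjusted limit. These loci and the locus in Rab21 were taken for their p after separation. Their values in that condition, and the differences that contain them, describe them and test nothing.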
